A study of Mus musculus with 13 samples.

Results

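The ileum of vancomycin-treated mice was compared with the ileum of mice given no antibiotic, using every ileum array of the series, 6 of 13 arrays in all. The members were chosen by label: 3 arrays labelled as ileum with vancomycin and 3 labelled as ileum without antibiotic, described across the 19572 probe sets that carry exactly 1 gene symbol out of 28846. All mice were FVB females that carried a mammary carcinoma expressing human HER2. In the treated group the drinking water held 200 mg/L of vancomycin, a glycopeptide antibiotic directed at Gram-positive bacteria, beginning at 4 weeks of age, and what the control mice drank is not described. Tissue was collected at 9 weeks, of age or of treatment, when tumours had reached 150 mm3. The other 7 arrays are colon from the same treatments, and they serve here to estimate the spread between arrays and to compare the 2 tissues.

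The mucosa of the ileum is in contact with a dense microbiota, including Gram-positive bacteria that adhere to the epithelium. Epithelial cells answer bacterial signals and interferon with antimicrobial and oxidant enzymes and with the machinery that presents antigen. Lymphocytes that lie between the epithelial cells, many of them cytotoxic, are held there by epithelial ligands and produce interferon gamma. Promoters of interferon-induced genes often hold the gamma-activated site (GAS, here TTCNNNGAA) or the interferon-stimulated response element (ISRE, here GAAA, any 2 bases and GAAA), the latter bound by interferon regulatory factors. The immunity-related GTPases are interferon-induced enzymes that act on the membranes around intracellular microbes.

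Both motifs stood in the promoters of the 4 immunity-related GTPases that fell with vancomycin, and these promoters are shown because the family had the lowest median difference of the 51 gene lists examined. Each runs from 250 bases before to 50 bases after the start of the gene, 5′ to 3′ on the strand of the gene (RefSeq, GRCm38.p6), with GAS and ISRE matches on either strand in capitals. Igtp is at chr11:58199306-58199605 on the plus strand, Gm12250 at chr11:58183593-58183892 on the plus strand, Tgtp2 at chr11:49064163-49064462 on the minus strand and Irgm2 at chr11:58214727-58215026 on the plus strand.
Igtp: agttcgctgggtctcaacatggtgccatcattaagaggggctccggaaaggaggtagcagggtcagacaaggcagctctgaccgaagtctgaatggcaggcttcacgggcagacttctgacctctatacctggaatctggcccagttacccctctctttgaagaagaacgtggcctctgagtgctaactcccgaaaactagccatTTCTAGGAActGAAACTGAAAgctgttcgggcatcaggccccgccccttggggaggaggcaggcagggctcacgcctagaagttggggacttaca
Gm12250: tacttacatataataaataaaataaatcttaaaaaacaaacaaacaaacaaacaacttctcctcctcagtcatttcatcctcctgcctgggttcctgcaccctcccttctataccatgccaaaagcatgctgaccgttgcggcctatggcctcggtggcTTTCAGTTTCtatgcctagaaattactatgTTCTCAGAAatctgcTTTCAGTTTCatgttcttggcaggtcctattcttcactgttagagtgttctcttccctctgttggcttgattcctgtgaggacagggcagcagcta
Tgtp2: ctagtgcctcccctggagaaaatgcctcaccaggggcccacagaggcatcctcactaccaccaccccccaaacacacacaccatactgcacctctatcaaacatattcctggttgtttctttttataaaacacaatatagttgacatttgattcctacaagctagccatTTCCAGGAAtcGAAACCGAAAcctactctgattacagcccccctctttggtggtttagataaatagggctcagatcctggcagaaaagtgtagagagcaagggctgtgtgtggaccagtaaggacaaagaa
Irgm2: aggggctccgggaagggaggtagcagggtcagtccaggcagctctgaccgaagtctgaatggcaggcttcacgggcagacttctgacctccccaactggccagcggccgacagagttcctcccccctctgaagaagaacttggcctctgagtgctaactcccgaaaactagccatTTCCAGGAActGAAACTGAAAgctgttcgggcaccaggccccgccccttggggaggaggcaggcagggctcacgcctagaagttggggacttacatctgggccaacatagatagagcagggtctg
In Igtp, Tgtp2 and Irgm2 the ISRE match began 11 bases after the start of the GAS match, which itself began at positions -45, -81 and -75 from the gene start. The Igtp and Irgm2 windows share long stretches of sequence, and Tgtp2 shares the bases around the GAS match. Their matches and equal spacing are therefore not independent of each other. In Gm12250 the GAS match lay between 2 ISRE matches on the opposite strand, the nearer starting 15 bases away. Of all 32851 promoter windows in the table, 8.3% held the GAS letters, 3.44% the ISRE letters, 0.454% both, and 0.131% both with starts at most 20 bases apart. Among the other measured members of the family, Irgm1 held 2 overlapping ISRE matches and no GAS match, and Irgq held neither. Iigp1, Gm4951, F830016B08Rik and Irgc1 had no entry. A match describes the letters only.

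The genes that fell in vancomycin ilea included members of several gene lists: 4 of 10 immunity-related GTPases, 6 of 28 MHC class I and 4 of 17 MHC class II presentation genes, 4 of 23 oxidant and antimicrobial genes, 4 of 19 cytotoxic granule genes and 7 of 45 T cell and intraepithelial lymphocyte genes. Most members of each list did not pass the test, and few genes rose. Values are log2 expression from RMA, differences are vancomycin minus no antibiotic, and a difference of 1 on this scale is nominally a doubling. In the limma fit 105 of 19572 probe sets (0.536%) passed an adjusted p of 0.05, 95 lower (0.485%) and 10 higher (0.0511%), and 1977 had an unadjusted p under 0.05. Each of the 105 represented a different gene. Of the falls, 28 were of 2 or more on the log2 scale, 53 between 1 and 2 and 14 under 1, with a median of -1.43, while the rises ran from 0.80 to 2.61 with a median of 1.11. The median over all probe sets was 0.02, and 45.91% of differences were negative. None of the 105 overlapped between the groups, against 16.9% of all probe sets without overlap (8.34% lower and 8.57% higher).

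**Figure D1:**
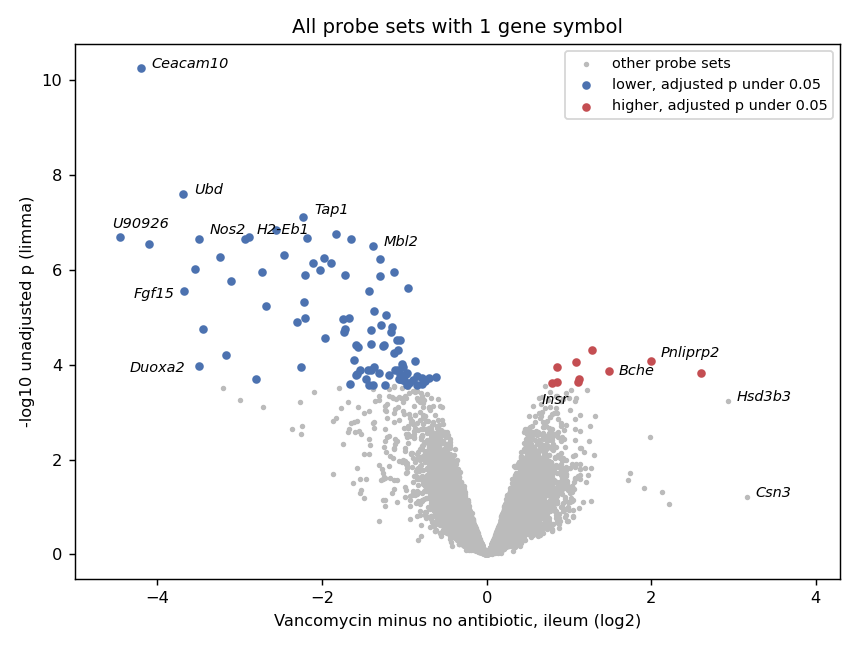
Difference between vancomycin and no-antibiotic ilea (log2, x axis) against -log10 of the unadjusted limma p (y axis) for 19572 probe sets. The 95 falls past the threshold (blue) reach -4.46 and the 10 rises (red) reach 2.61; Csn3 and Hsd3b3 have large differences that did not pass.

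Ileal enterocyte markers were high on all ileum arrays. The 8 ileal enterocyte markers averaged 15.38 to 16.26 on the 6 arrays, and the 6 colon markers averaged 8.99 to 9.41. Of the colon markers, Slc26a3 (14.70 to 15.22) and Car4 (13.25 to 14.10) were also high. Levels of different probe sets are not strictly comparable, and the marker values of the colon arrays are not given here. Ileum array medians were 7.98 to 8.11. Vancomycin array 11 stood apart from its group, with a mean correlation of 0.9773 to the other vancomycin ilea, against 0.9867 and 0.9833 for arrays 13 and 14 and 0.9942 to 0.9946 among the ilea without antibiotic. The means of arrays 13 and 14 include their correlation with array 11. To the untreated ilea the mean correlations were 0.9775 for array 11 and 0.9905 and 0.9891 for arrays 13 and 14. Array 11 had 154 probe sets more than 2 above the mean of arrays 13 and 14 and 65 more than 2 below. Without array 11 the fit called 172 probe sets (0.879%), 130 lower (0.664%) and 42 higher (0.215%). Of the 105 genes, 80 kept the call, 25 lost it, and 105 of 105 kept their sign. The 25 were 4932438A13Rik, Acot12, Apol7a, Casp4, Ccl28, D5Ertd579e, Eif1a, Gemin6, Gm8909, H2-T23, Il18bp, Insl6, Insr, Mlkl, Mov10, Pam, Parp14, Plagl2, Prdm1, Sbno2, Skil, Snd1, Tmcc3, Xdh and Znfx1. In a fit of the 6 ileum arrays alone 20 probe sets passed (0.102%), 19 of them among the 105, and in that fit without array 11 the number was 182 (0.93%), with 72 of the 105 among them.

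Leaving out each ileum array in turn kept 37 of the 105 calls in every case, 37 falls and 0 rises. These were U90926, Ceacam10, Igtp, Ubd, Fgf15, Gzmb, Nos2, Gm12250, Ido1, H2-Eb1, Zbp1, H2-DMa, Ifit1bl1, Cd7, Barx2, Tap1, Exoc3l4, Nox1, Irgm2, Gml, H2-Ab1, Plekhn1, Psmb9, Zc3h12a, Nkg7, Psmb8, Batf2, H2-Aa, Cd244a, Ly75, Mbl2, Itgae, Apol10a, Apol7e, Cd96, Nudt5 and Ccl5. The other 68 lost the call with at least 1 array left out. Of the 105, 55 were lost without no-antibiotic array 1, 33 without array 2 and 66 without array 3, and 25, 57 and 30 without vancomycin arrays 11, 13 and 14. The number of calls was 56 without no-antibiotic array 1, 40 without array 3 and 56 without vancomycin array 13. Each of these fits kept the colon arrays, which enter the spread. In the limma fit of the ileum arrays alone 19 of the 105 passed, among them Ceacam10 (adjusted p = 0.00152) and Nos2 (0.0122). Others of the 37 did not pass there, such as Fgf15 (0.133), Exoc3l4 (0.123), H2-Aa (0.113) and Gzmb (0.0674).

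Ceacam10, a carcinoembryonic antigen family member, had the smallest p of all probe sets. Ilea without antibiotic gave 12.69, 12.49 and 12.47 (arrays 1, 2 and 3, the order used throughout) and vancomycin ilea 8.43, 8.71 and 7.92 (arrays 11, 13 and 14, likewise). The groups were far apart against their own spread, and the difference of -4.20 ± 0.23 (SE, 3 against 3 arrays, adjusted p = 1.11e-06) is nominally 18.3-fold lower. It was the only one of 13 measured Ceacam family genes past the threshold, and the next by p, Ceacam1, differed by -0.59 (adjusted p = 0.35). Nos2, the inducible nitric oxide synthase, read 12.52, 12.76 and 12.35 without antibiotic and 8.42, 9.43 and 9.28 with vancomycin. Its difference was -3.50 ± 0.37 (SE, adjusted p = 0.000406), with array 11 the lowest of the 3 treated arrays. Duoxa2, the maturation factor of an epithelial hydrogen peroxide-generating oxidase, read 13.05, 11.67 and 11.68 against 8.51, 8.54 and 8.84. Here the treated arrays were close together and untreated array 1 was high. The difference of -3.50 ± 0.65 had an adjusted p of 0.0333, which rose to between 0.0546 and 0.171 when array 1, 2, 3, 13 or 14 was left out. In the limma fit of the ileum arrays alone its adjusted p was 0.0292. Nox1, the NADPH oxidase of gut epithelium, read 8.68, 8.29 and 8.64 against 6.25, 6.39 and 6.34. Its difference of -2.21 ± 0.33 (adjusted p = 0.00571) stood beside one of -1.61 ± 0.29 (adjusted p = 0.0263) for Noxa1, the activating subunit of that oxidase, whose call was lost without array 1, 3 or 14. Saa1, an acute-phase apolipoprotein, read 11.84, 8.87 and 9.21 against 6.42, 6.93 and 7.05. Untreated array 1 was again the highest, and the difference of -3.17 ± 0.56 (adjusted p = 0.0213) lost its call without array 13 (adjusted p = 0.0674).

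Of the 23 measured genes of the oxidant and antimicrobial list, 4 fell (Nos2, Nox1, Saa1 and Duoxa2) and 0 rose, with a list median of -0.33 against 0.02 over all probe sets. The well-known antimicrobial lectins Reg3g and Reg3b did not pass. Reg3g read 15.44, 14.59 and 14.62 without antibiotic and 14.53, 14.62 and 14.50 with vancomycin, and Reg3b 16.43, 15.28 and 15.40 against 15.56, 15.85 and 15.73. Their groups overlapped, with differences of -0.33 ± 0.47 and 0.01 ± 0.44. Retnlb, a goblet cell protein induced by bacteria, differed by -0.93 ± 0.65 (adjusted p = 0.656). Mbl2, the mannose-binding lectin of the complement system, fell by 1.38 ± 0.15 (adjusted p = 0.00047), from 9.86, 9.74 and 9.33 to 8.22, 8.21 and 8.35. C2, a complement protease, fell by 1.73 ± 0.27 (adjusted p = 0.00902). Of 23 genes of the IL-17 and IL-22 axis, 0 passed in limma in either direction, and the median was -0.01. At an unadjusted p under 0.05, 3 were lower, against 1977 of all 19572 probe sets in either direction.

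**Figure D2:**
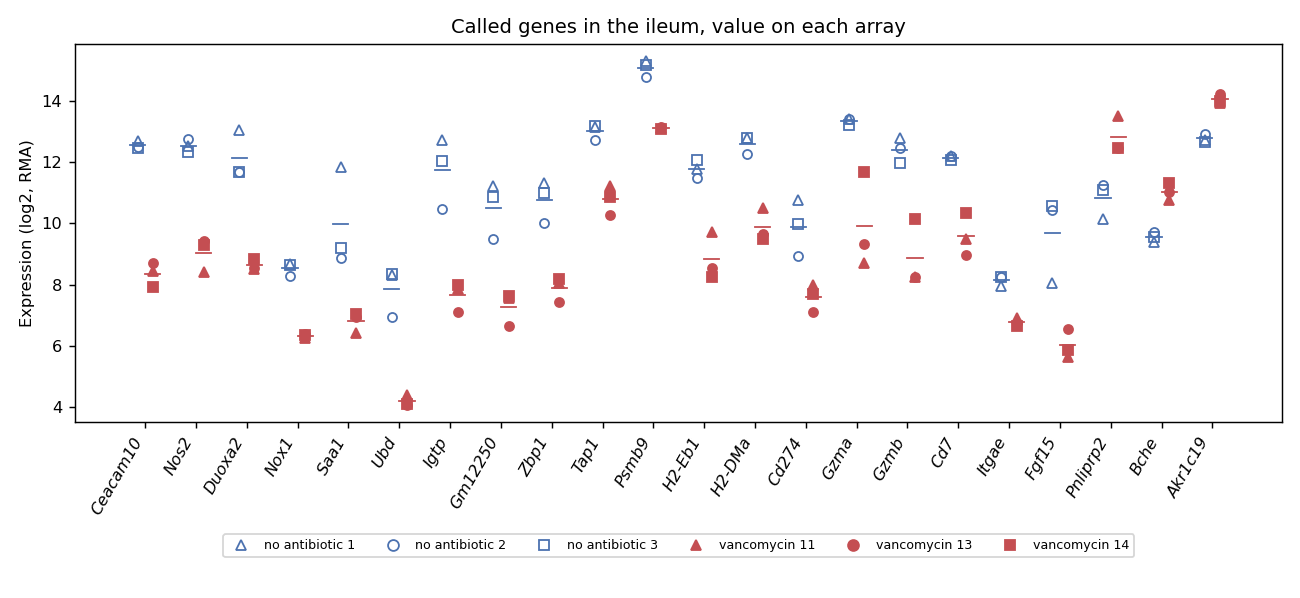
Log2 expression (y axis) of 22 called genes on each of the 6 ileum arrays: open blue symbols are ilea without antibiotic, filled red symbols vancomycin ilea, and short lines group means. In each gene the 3 red symbols lie on one side of the 3 blue ones; Saa1, Fgf15 and Igtp show the widest spread among the ilea without antibiotic.

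The immunity-related GTPases whose promoters are given above were low on the 3 vancomycin arrays. Igtp read 12.74, 10.47 and 12.03 without antibiotic and 7.85, 7.10 and 8.0 with vancomycin. The lowest untreated array, number 2, was still above the highest treated one, and the difference was -4.10 ± 0.44 (SE, adjusted p = 0.000456). Gm12250 read 11.21, 9.49 and 10.86 against 7.56, 6.64 and 7.63, a difference of -3.24 ± 0.37 (adjusted p = 0.00068). Irgm2, a regulatory member of the family, read 10.88, 9.84 and 10.58 against 8.14, 7.76 and 8.77, a difference of -2.21 ± 0.27 (adjusted p = 0.00102). In these 3 genes array 2 was the lowest of the untreated arrays and array 13 the lowest of the treated ones. Tgtp2 read 13.11, 11.14 and 11.80 against 10.73, 8.30 and 8.63, with array 11 high. Its difference was -2.80 ± 0.56 (adjusted p = 0.0439) with array 11 and -3.55 (adjusted p = 0.000944) without it, and it lost the call without array 1, 3, 13 or 14. Tgtp2 has a near-identical copy, so its signal may be shared. Of the 10 measured members 4 fell and 0 rose, 10 of 10 differences were negative, and the median was -1.61. Iigp1 read 11.07, 9.04 and 9.84 against 8.73, 7.32 and 7.61, and its difference of -2.10 did not pass with all arrays (adjusted p = 0.0607) and passed without array 11 (adjusted p = 0.0119). Irgm1 differed by -1.13 ± 0.29 (adjusted p = 0.136).

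The guanylate-binding proteins are another interferon-induced GTPase family, and their list included the related Atl3. In limma 0 of its 7 members passed with all arrays, and 3 passed without array 11. At an unadjusted p under 0.05, 3 were lower with all arrays, against 1977 of all 19572 probe sets in either direction. Gbp8 read 9.34, 9.01 and 9.33 against 8.80, 7.93 and 7.83. Gbp7 averaged 11.81 ± 0.81 against 10.44 ± 0.64 (SD, n = 3 each). Array 11 was the highest treated array in both. Without it Gbp8 differed by -1.35 (adjusted p = 0.00209), Gbp7 by -1.74 (adjusted p = 0.0283) and Gbp3 by -0.96 (adjusted p = 0.0306), and the family median moved from -0.39 to -0.96.

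Of the 23 measured genes of the interferon gamma axis 5 fell, 0 rose and 21 had a negative difference, with a median of -0.19. Ubd, which encodes the ubiquitin-like modifier FAT10, read 8.32, 6.93 and 8.35 against 4.38, 4.06 and 4.09. The treated arrays lay within a narrow range, and the difference was -3.69 ± 0.33 (SE, adjusted p = 0.000243). U90926 had the largest fall of the 105, at -4.46 ± 0.47 (adjusted p = 0.000406), from 11.47, 8.94 and 10.45 to 5.56, 5.65 and 6.26. Ido1, the enzyme that opens tryptophan breakdown to kynurenine, read 13.87, 13.16 and 13.77 against 9.61, 10.62 and 11.23, a difference of -3.11 ± 0.39 (adjusted p = 0.00125). Array 11 was the lowest of the 3 treated arrays here. The transcription factors Batf2 and Irf8 fell by 1.72 ± 0.21 and 1.41 ± 0.24 (adjusted p = 0.00102 and 0.0148), and Irf8 lost the call without array 1, 3 or 13. Ciita, the master regulator of MHC class II, and Irf1 did not pass with all arrays and passed without array 11, with differences of -1.16 and -1.41 and adjusted p of 0.00629 and 0.0451. Ifng itself read 7.59, 7.37 and 7.25 against 7.10, 6.84 and 7.35, and its difference of -0.31 ± 0.18 did not pass (adjusted p = 0.594). Cxcl9, a chemokine induced by interferon gamma, differed by -1.43 ± 0.46 (adjusted p = 0.275), and Cxcl10 by -0.30 (adjusted p = 0.548).

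The list of 33 type I and III interferon genes also held the receptor genes Ifnar1, Ifnar2 and Ifnlr1. Of the 33, 2 fell and 0 rose, with a median of -0.32. Zbp1, a sensor of Z-form nucleic acids, averaged 10.78 ± 0.69 against 7.89 ± 0.39 (SD, n = 3 each), and Ifit1bl1 read 14.13, 13.13 and 13.63 against 11.02, 10.65 and 11.17. Both pairs of groups were separate, with differences of -2.89 ± 0.30 (adjusted p = 0.000406) and -2.68 ± 0.38 (adjusted p = 0.00356). The other members did not pass. Some differed downward, such as Ifit1 (-1.68, adjusted p = 0.0742), Isg15 (-1.14, adjusted p = 0.299) and Rsad2 (-1.13, adjusted p = 0.24). Others differed upward, such as Ifit3 (0.35, adjusted p = 0.515) and Ifit3b (0.39, adjusted p = 0.415).

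Of 28 measured MHC class I presentation genes 6 fell, 0 rose, 26 had a negative difference, and 22 had the vancomycin arrays wholly below the others, against 8.34% of all probe sets. The median was -0.62, and -0.55 without array 11. Tap1, a subunit of the peptide transporter of the endoplasmic reticulum, read 13.16, 12.74 and 13.19 against 11.24, 10.29 and 10.87. Psmb9, a subunit of the immunoproteasome, read 15.31, 14.80 and 15.17 against 13.12, 13.17 and 13.09, with the 3 treated arrays almost equal. These differences were -2.23 ± 0.22 (adjusted p = 0.000406) and -1.97 ± 0.23 (adjusted p = 0.00068). Psmb8, a second immunoproteasome subunit, fell by 1.75 ± 0.26 (adjusted p = 0.00571). The non-classical class I genes H2-Q10, H2-Q2 and H2-T23 fell by 1.4, 1.37 and 1.02, and H2-Q5, outside the list, by 1.05. Calls of these non-classical genes were lost with at least 1 array left out, that of H2-T23 without array 2, 3, 11 or 13, and H2-Q genes resemble each other closely, so their probe sets may share signal. H2-D1, a classical class I heavy chain, differed by -0.98 (adjusted p = 0.0689) and Tapbpl by -1.12 (adjusted p = 0.0508).

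Among MHC class II presentation genes, 3 chains that display peptide fell. H2-Eb1 went from 11.78, 11.47 and 12.07 to 9.73, 8.55 and 8.25, and H2-Ab1 from 12.98 ± 0.15 to 10.86 ± 0.62 (SD, n = 3 each). H2-Aa read 14.12, 14.02 and 14.26 against 13.11, 12.24 and 12.03. In all of these array 11 was the highest treated array and still below every untreated one, and the differences were -2.93 ± 0.31, -2.11 ± 0.25 and -1.67 ± 0.25 (adjusted p = 0.000406, 0.000739 and 0.00571). A further chain, H2-Eb2, did not pass (-0.27, adjusted p = 0.731). H2-DMa, which loads peptide onto class II, fell by 2.73 ± 0.33 (adjusted p = 0.000947). Its partners H2-DMb1 and H2-DMb2 read 14.01, 13.56 and 14.03 against 13.39, 11.77 and 11.43, and 12.81, 12.66 and 12.75 against 12.87, 10.61 and 10.28. On array 11 H2-DMb2 was as high as in the untreated ilea. Neither passed with all arrays, and both passed without that array, with differences of -2.27 and -2.30 (adjusted p = 0.00532 and 0.0002). In the whole list 4 of 17 fell with all arrays and 7 without array 11, 0 rose, and the median was -0.23 and -0.35. The mean of the 17 genes was 10.85, 10.67 and 10.90 without antibiotic and 10.79, 9.82 and 9.74 with vancomycin. B cells also express class II genes, and the 26 B cell and lymphoid follicle genes averaged 10.07 on array 11 against 7.72 to 8.43 on the other 5 arrays. The part of B cells in the class II values of array 11 was not tested.

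Some of the called genes were neighbours. With starts at most 100 kb apart in the RefSeq gene order, 21 of the 105 genes fell into 6 runs, and all 21 were falls. H2-DMa, Psmb9, Tap1, Psmb8, H2-Ab1, H2-Aa and H2-Eb1 formed 1 run of 7 genes. The others were Gm12250, Igtp and Irgm2, then Gsdmc, Gsdmc2, Gsdmc3 and Gsdmc4, then H2-Q2, H2-Q5 and H2-Q10, then Apol7a with Apol10a, and Cd274 with Insl6. Cd274, the ligand of the inhibitory receptor PD-1, read 10.76, 8.92 and 9.99 against 8.0, 7.09 and 7.68. Its difference of -2.30 ± 0.35 (adjusted p = 0.00664) lost the call without array 3 (adjusted p = 0.0506).

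The Gsdmc genes encode gasdermins, pore-forming proteins, of the intestinal epithelium. Gsdmc read 9.70, 9.85 and 9.95 against 8.76, 8.14 and 8.81, and Gsdmc4 13.04, 13.05 and 12.96 against 12.08, 11.72 and 12.01. The differences were -1.26 ± 0.21 and -1.08 ± 0.19 (adjusted p = 0.0153 and 0.0177), and Gsdmc3 and Gsdmc2 fell by 1.05 ± 0.20 and 0.84 ± 0.17. The copies resemble each other and may share signal, and each lost the call with at least 3 different arrays left out in turn. With Casp4, the caspase that senses cytosolic lipopolysaccharide (-0.97 ± 0.20), 5 of 13 genes of the gasdermin list fell, 0 rose and the median was -0.35. Gsdmd, the gasdermin cut by inflammatory caspases, differed by -0.41 (adjusted p = 0.596). Mlkl, which executes necroptosis, fell by 0.97 ± 0.19 (adjusted p = 0.0391). Casp4 lost the call with any 1 of the 6 arrays left out (adjusted p = 0.0792 without array 11), and Mlkl with any but array 2 (adjusted p = 0.0712 without array 11).

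Granzymes A and B, the proteases of cytotoxic granules, were low on the vancomycin arrays. Gzmb read 12.79, 12.47 and 11.98 against 8.24, 8.23 and 10.14, and Gzma 13.43, 13.43 and 13.22 against 8.72, 9.34 and 11.67. Array 14 was the highest treated array in both, and the groups did not overlap. Differences were -3.54 ± 0.42 (adjusted p = 0.000924) and -3.45 ± 0.54 (adjusted p = 0.00844), the latter lost without array 13 (adjusted p = 0.0525). Nkg7, a granule membrane protein, fell by 1.83 ± 0.19 (adjusted p = 0.000406), from 10.33, 10.03 and 9.74 to 8.18, 7.91 and 8.52. Ctsw, a cathepsin of cytotoxic cells, fell by 0.89 ± 0.18 (adjusted p = 0.0451). Prf1, perforin, read 5.17, 5.32 and 4.93 against 5.08, 5.24 and 5.02, overlapping values near the low end of the scale that did not pass. Over the 19 measured genes 4 fell, 0 rose, and the median was -0.10.

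Of 45 T cell and intraepithelial lymphocyte genes 7 fell with all arrays, 12 without array 11, and 0 rose. Cd7, a receptor of T and NK cells, read 12.21, 12.20 and 12.06 against 9.49, 8.95 and 10.35, a difference of -2.56 ± 0.26 (adjusted p = 0.000406). Itgae, the integrin chain that binds epithelial E-cadherin, read 7.94, 8.24 and 8.24 against 6.92, 6.74 and 6.64, a difference of -1.37 ± 0.20 (adjusted p = 0.00432). In both genes the treated arrays were wholly below the untreated ones. The receptors Cd244a and Cd96 fell by 1.65 ± 0.18 and 1.22 ± 0.18, and Il2rb, the chain shared by the IL-2 and IL-15 receptors, by 1.28 ± 0.20. Klrd1, also called CD94, and Cd6 fell by 1.56 ± 0.26 and 1.19 ± 0.23. The T cell receptor subunit Cd3g read 12.20, 12.35 and 12.21 against 11.33, 9.51 and 10.54, with array 11 the highest treated array. Its difference was -1.79 (adjusted p = 0.0542) with all arrays and passed without array 11, at -2.23 (adjusted p = 0.00406). Cd3e (-1.17) and the gut-homing receptor Ccr9 (-1.65) likewise did not pass with all arrays and passed without array 11. Cd8a differed by -1.35 (adjusted p = 0.0724) and by -1.34 (adjusted p = 0.108) without array 11. The list median was -0.09 with all arrays and -0.58 without array 11. In whole tissue, fewer cells of a type and less RNA per cell cannot be told apart.

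**Figure D3:**
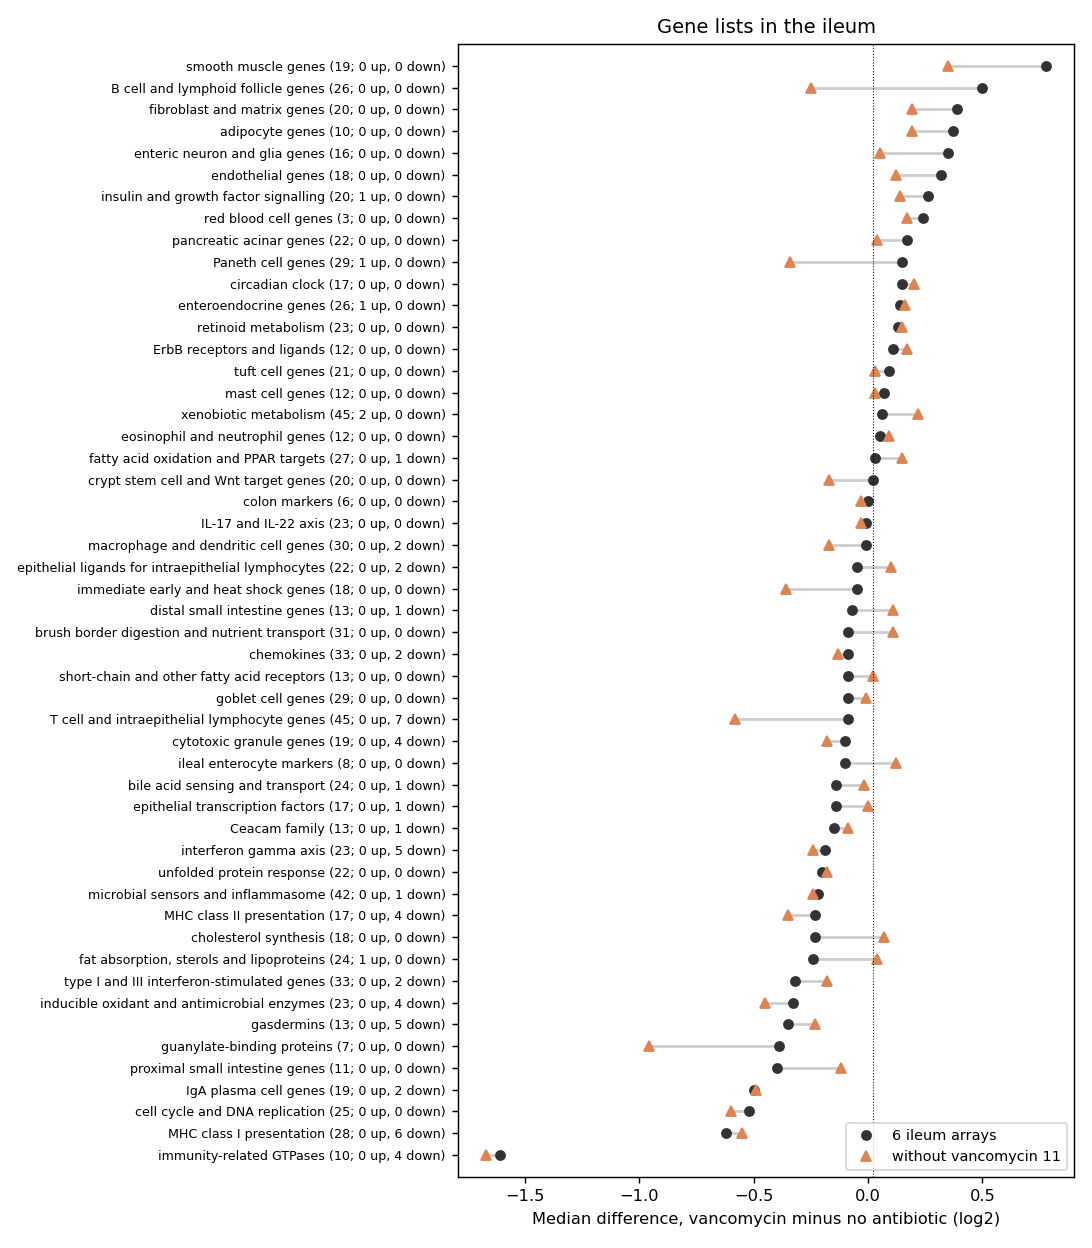
Median difference between vancomycin and no-antibiotic ilea (log2, x axis) for each of 51 gene lists, with all 6 arrays (circles) and without array 11 (triangles); labels give genes measured and genes called up and down, and the dotted line is the median of all probe sets, 0.02. The immunity-related GTPases are lowest at -1.61, and the B cell list moves across the dotted line when array 11 is left out.

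Epithelial factors that act on these lymphocytes, chemokines and plasma cell genes held a few falls. Of 22 epithelial ligands Cd274 and Il7, a lymphocyte growth factor, fell, the latter by 1.25 ± 0.21 (adjusted p = 0.0148), and the list median was -0.05. Ccl5, a chemokine that T cells release, read 6.29, 6.27 and 6.22 against 5.31, 5.24 and 5.37, a difference of -0.95 ± 0.12 (adjusted p = 0.00165). Each group spanned a small part of the gap between them. Ccl28, which attracts IgA plasma cells, fell by 1.11 ± 0.21 (adjusted p = 0.0358), and lost the call without array 1, 2, 3, 11 or 14 (adjusted p = 0.0644 without array 11). Of the 33 chemokines 0 rose. Of 19 plasma cell genes Prdm1, the regulator of plasma cell formation, fell by 1.59 ± 0.31 and Tnfsf13b, the B cell survival factor BAFF, by 1.01 ± 0.20 (adjusted p = 0.0397 and 0.0451). Prdm1 lost the call without array 1, 2, 3, 11 or 13 (adjusted p = 0.0703 without array 11). The list median was -0.50, with 17 of 19 negative. Jchain, the joining chain of secreted IgA, read 14.66, 15.40 and 15.21 against 14.22, 12.74 and 12.82, and did not pass with all arrays but did without array 11 (-2.31, adjusted p = 0.0176).

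Fgf15, the ileal hormone that represses bile acid synthesis in the liver, read 8.06, 10.45 and 10.56 against 5.64, 6.54 and 5.85. Untreated array 1 was low and still above the treated arrays, and the difference was -3.68 ± 0.49 (SE, adjusted p = 0.00186). Nr0b2, another target of the bile acid receptor, was likewise lowest on untreated array 1 among the untreated arrays, at 6.75, 8.98 and 8.86 against 6.38, 6.64 and 7.0, but its groups overlapped (-1.52 ± 0.42, adjusted p = 0.173). Carriers of bile acids did not pass: Slc10a2, the apical importer, differed by -0.11 ± 0.33, and Fabp6, the cytosolic binding protein, by 0.02 with values of 18.04 to 18.19 on the 6 arrays, at the top of the scale. Of 24 bile acid genes 1 fell, 0 rose and the median was -0.14.

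The remaining falls, named to account for every called gene and so chosen after their values were seen, ranged widely. Barx2, a homeobox transcription factor, read 10.06, 11.30 and 10.60 against 8.11, 7.90 and 8.57, a difference of -2.46 ± 0.28 (adjusted p = 0.000678). Zc3h12a, the ribonuclease Regnase-1, read 12.13, 11.46 and 11.76 against 9.98, 9.98 and 9.72, a difference of -1.89 ± 0.22 (adjusted p = 0.000739). Both kept the call in each of the 6 leave-outs. Gml fell by 2.18, Exoc3l4 by 2.22, Plekhn1 by 2.03, Trim15 by 2.25, Gm5431 by 1.96 and Rab19 by 1.72. Mov10, an RNA helicase, fell by 1.66, and Parp14, Uba7, Znfx1 and Rnf19b by 1.0, 1.13, 0.75 and 1.03. The apolipoprotein L genes Apol7a, Apol7e and Apol10a fell by 1.47, 1.29 and 1.29. Il18bp, the inhibitor of IL-18, fell by 1.38, Ly75, an endocytic receptor, by 1.43, and the receptor Cd200r1 by 1.59. Xdh, which makes urate, fell by 1.24 and Elf3, a transcription factor of epithelia, by 1.08. Acot12, Tmcc3, D5Ertd579e, Insl6, Dnase1, Slc35f2 and Adcy8 fell by 1.58, 1.54, 1.44, 1.43, 1.4, 1.31 and 1.16. Smaller falls were those of 1110038F14Rik (-1.15), Nudt5 (-1.12), Itpka (-1.09), Sbno2 (-1.07), Skil (-1.05), Gm8909 (-0.98), Ift22 (-0.94), Snd1 (-0.87), Eif1a (-0.84), Slf1 (-0.79), Gemin6 (-0.79), Plagl2 (-0.70) and 4932438A13Rik (-0.61). Without array 11 the calls of Mov10, Parp14, Znfx1, Apol7a, Il18bp, Xdh, Acot12, Tmcc3, D5Ertd579e, Insl6, Sbno2, Skil, Gm8909, Snd1, Eif1a, Gemin6, Plagl2 and 4932438A13Rik were lost, at adjusted p of 0.0504 to 0.102.

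The 10 rises were smaller than the largest falls, and 0 of them held in every leave-out. Pnliprp2, a lipase of the Paneth cell list, read 10.13, 11.25 and 11.08 without antibiotic and 13.53, 12.47 and 12.46 with vancomycin, a rise of 2.0 ± 0.36 (adjusted p = 0.0271). Its highest value was on array 11, where the 29 Paneth cell genes averaged 13.22 against 11.97 and 11.8 on arrays 13 and 14. Pnliprp2 was the only one of the 29 past the threshold, and Lyz1, the Paneth cell lysozyme, differed by 0.17 ± 0.29. Bche, butyrylcholinesterase, read 9.38, 9.72 and 9.54 against 10.77, 11.04 and 11.31, a rise of 1.49 ± 0.29 (adjusted p = 0.0367). Akr1c19, an aldo-keto reductase, rose by 1.28 ± 0.22 (adjusted p = 0.0177), from 12.73, 12.93 and 12.68 to 13.94, 14.23 and 14.02. Both belong to the 45 xenobiotic metabolism genes, of which 2 rose, 0 fell and the median was 0.06. Pam, which amidates peptide hormones, rose by 0.86 ± 0.18 (adjusted p = 0.0479) and Insr, the insulin receptor, by 0.80 ± 0.16 (adjusted p = 0.0479). Their calls were lost without array 11 (adjusted p = 0.1 and 0.0984). The others were Pcdh19 (1.12), Fam161a (1.11), Osbpl1a, an oxysterol-binding protein (1.09), Stxbp6 (0.85) and the predicted gene 1700057G04Rik (2.61).

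Without array 11 a further 92 probe sets passed, 34 higher and 58 lower. The largest of these rises was Hsd3b3, a steroid dehydrogenase, at 7.34, 6.96 and 7.22 against 8.50, 10.64 and 11.18. All 3 treated arrays were above the untreated ones, array 11 by the least, and the difference was 2.93 ± 0.66 (adjusted p = 0.0739) with array 11 and 3.74 ± 0.56 (adjusted p = 0.00438) without it. Cyp4b1, a cytochrome P450, read 9.56, 10.02 and 9.30 against 9.34, 11.60 and 11.62, so that array 11 lay among the untreated values. Angptl4, a secreted lipoprotein lipase inhibitor, read 8.58, 8.45 and 9.12 against 8.31, 10.31 and 9.96, with array 11 below the untreated values. Without array 11 these differed by 1.98 (adjusted p = 0.0018) and 1.42 (adjusted p = 0.0326). Next were Nat8f5 (1.84), Slc5a4a, a sodium-glucose cotransporter family member (1.56), Hao2, a peroxisomal hydroxyacid oxidase (1.52), Olfr165 (1.51), Cyp4b1-ps2 (1.51), Syt17 (1.41) and Slc9b1 (1.33). The falls among the 92 were led by Iigp1, Jchain, H2-DMb2, H2-DMb1 and Cd3g, given above, and by Pik3ap1 (-2.06), Slc23a4 (-1.88), Hk2, a hexokinase (-1.81), Tmem154 (-1.75) and Gbp7.

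Array 11 also had high values of genes of other cell types. Csn3, the milk protein kappa casein, read 14.39 on array 11, 8.03 and 9.85 on arrays 13 and 14, and 7.50, 7.55 and 7.74 in the untreated ilea. Other caseins were also highest on array 11, with Csn1s2a at 12.47 against 7.45 to 8.12 on the other 5 ileum arrays, Csn1s1 at 10.06 against 6.14 to 7.62 and Csn2 at 9.08 against 5.58 to 6.38. Lalba, alpha-lactalbumin, read 7.71 against 5.53 to 6.08. Of the 8 milk protein genes, a list drawn up after these values were seen, 6 were highest on array 11, Glycam1 barely, while Wap and Csn1s2b were not. Csn3 was also high on 2 colon arrays, at 13.53 on vancomycin colon 14 and 10.28 on untreated colon 5, against 7.31 to 8.31 on the other 5. Lcn2, lipocalin 2, read 12.51 on array 11 and 6.4 to 7.28 on the other ileum arrays, and Wfdc18 12.62 against 6.98 to 7.67. The list median of the oxidant and antimicrobial enzymes, to which Lcn2 belongs, was -0.33 with array 11 and -0.45 without it.

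**Figure D4:**
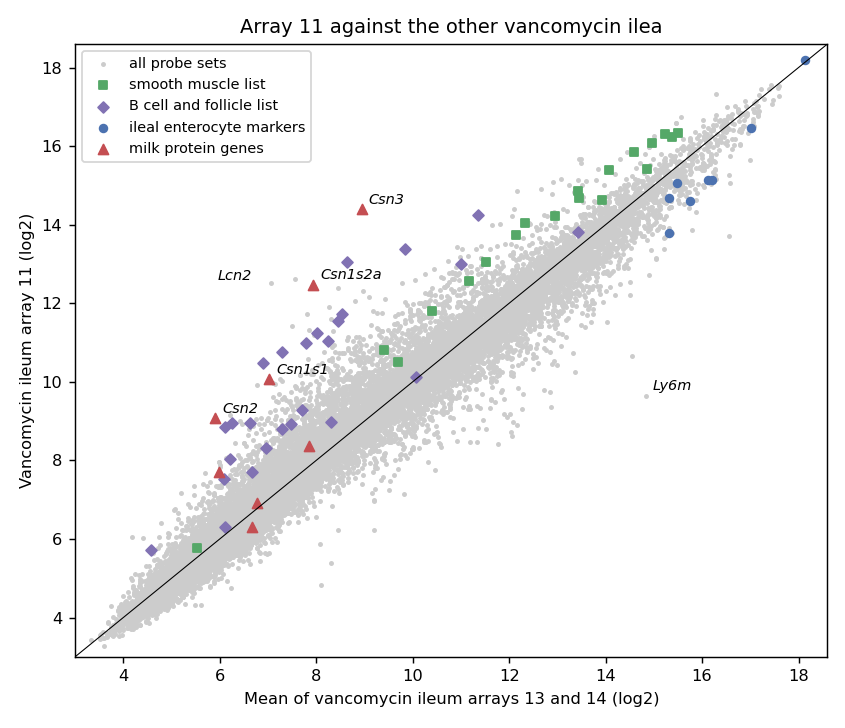
Log2 expression on vancomycin ileum array 11 (y axis) against the mean of vancomycin ilea 13 and 14 (x axis) for all probe sets (grey), with the line of equality. Casein genes, the smooth muscle list and most of the B cell and follicle list lie above the line, and most ileal enterocyte markers on or below it.

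Lists of other tissue parts moved with array 11 too. The 26 B cell and follicle genes averaged 10.07 on it, 2.15 above the mean of arrays 13 and 14, with Cd37 at 13.05 against 9.12 and 8.16 and Cd22 at 10.47 against 7.41 and 6.37. The 29 Paneth cell genes averaged 13.22 on array 11 against 11.97 and 11.8, and 11.76 to 12.48 in the untreated ilea. The 19 smooth muscle genes averaged 13.80 against 12.79 and 12.52 and 12.24 to 12.47 in the untreated ilea. Brush border genes averaged 12.30 against 13.12 and 13.33, and ileal enterocyte markers 15.38 against 16.07 and 16.26. Among single genes array 11 was furthest below arrays 13 and 14 in Ly6m, at 9.65 against 14.47 and 15.20 and 14.36 to 14.47 in the untreated ilea. Ada, adenosine deaminase (10.65 against 14.40 and 14.70), and Cyp3a11, a cytochrome P450 (9.37 against 12.67 and 13.07), followed. The part of these in the array 11 results was not tested. Other arrays had single groups apart. The pancreatic amylases Amy2a2, Amy2a4, Amy2a5 and Amy2b are near-identical copies, listed after their values were seen. They averaged 11.32 on array 11 and 10.81 on untreated array 1 against 7.38 to 8.25 on the other 4 ilea. In colon they were high on the same title numbers. Amy2a2 read 13.82 on untreated colon 1 and 13.13 on vancomycin colon 11, against 7.37 to 7.9 on the other colon arrays. The wider list of 22 pancreatic acinar genes stood less apart. It averaged 8.14 on ileum array 11, 7.44 and 7.43 on arrays 13 and 14, and 7.34 to 7.82 in the untreated ilea. Untreated array 2 had higher Lct, lactase, at 9.39 against 6.05 to 6.68, and higher Fabp1 at 11.26 against 7.95 to 9.87, both genes of the more proximal small intestine.

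Cell cycle and DNA replication genes had negative differences and no call. In limma 0 of 25 passed. At an unadjusted p under 0.05, 10 were lower, against 1977 of all 19572 probe sets in either direction. All 25 differences were negative, 16 had the vancomycin arrays wholly below the others (8.34% of all probe sets), and the median was -0.52, or -0.60 without array 11. Top2a, topoisomerase II alpha, read 11.28, 10.81 and 11.14 against 10.20, 10.41 and 9.66 (-0.99 ± 0.30, adjusted p = 0.242), and Bub1, a mitotic checkpoint kinase, 10.55, 10.20 and 10.39 against 9.30, 9.78 and 9.11 (-0.98 ± 0.27, adjusted p = 0.173). Lgr5, the crypt stem cell receptor, differed by 0.22 ± 0.17. Of 17 circadian clock genes 0 passed in limma. At an unadjusted p under 0.05, 3 were lower and 2 higher, against 1977 of all 19572 probe sets in either direction. The treated arrays lay wholly above the others in 6 and wholly below in 4, against 8.57% and 8.34% of all probe sets. Dbp read 11.04, 11.92 and 11.40 against 12.61, 12.53 and 12.37 (1.05 ± 0.54), and Nfil3, which opposes it, 10.58, 10.17 and 10.05 against 9.21, 8.86 and 9.17 (-1.19 ± 0.25, adjusted p = 0.057). The times of day at which tissues were taken are not given in the sources used here. Goblet cell genes had 0 of 29 called in limma, with 1 lower and 1 higher at an unadjusted p under 0.05, with Muc2, the secreted mucin, at 17.10 to 17.29 on all arrays, and of 26 enteroendocrine genes Pam alone passed, with a median of 0.14.

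The change was next compared with that in colon, in a contrast of ileum change minus colon change. Over all probe sets 37 passed (0.189%), and 31 of the 105 ileum genes were among them, 30 falls and Pnliprp2. The contrast contains the ileum difference by which the 105 were called, so an overlap is built in. The ileum and colon changes were -4.20 and -0.00 for Ceacam10, -3.69 and 0.42 for Ubd, -3.50 and 0.17 for Nos2, -2.56 and 0.40 for Cd7 and -2.23 and 0.04 for Tap1. Of the 95 falls 46 had a negative colon difference, with a colon median of 0.02. In colon 0 of the 105 passed in limma, with 8 lower and 4 higher at an unadjusted p under 0.05. The colon shares over all probe sets are not given here, so these counts do not set the 105 apart from other genes. Some large ileum falls were also negative in colon and did not pass the test of the difference, such as Ido1 (-3.11 and -0.94, adjusted p = 0.198) and H2-DMa (-2.73 and -0.95, adjusted p = 0.21). Without ileum arrays 1 and 3 in turn the contrast passed 18 and 12 probe sets, and without array 11 it passed 84.

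**Figure D5:**
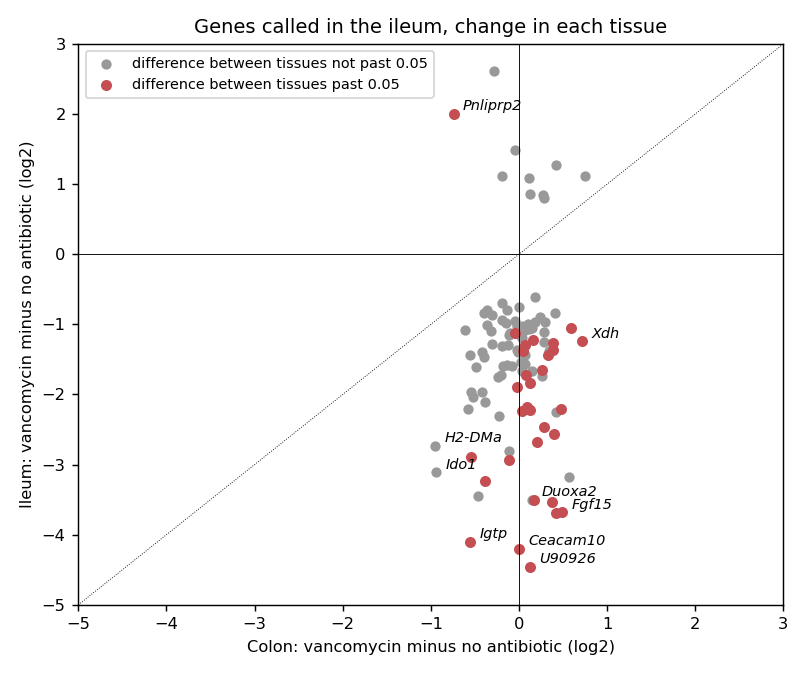
Vancomycin minus no antibiotic (log2) in colon (x axis) and ileum (y axis) for the 105 genes called in the ileum, with the line of equal change dotted. Red points, 31 genes, differed between the tissues past an adjusted p of 0.05, in a contrast that contains the ileum difference. In colon 0 of the 105 passed, and the share over all probe sets there is not given.

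The promoters of the called genes were searched for the motifs shown at the start. Of the 95 falls 65 had a promoter in the table. The GAS letters stood in 15 (23.1%), the ISRE letters in 12 (18.5%) and either in 20 (30.8%). Over all 15691 tested genes with a promoter these shares were 9.02%, 3.94% and 12.3%. The 4 immunity-related GTPases are counted in the 15 and in the 12, and windows that share sequence are not independent. Of 8 rises with a promoter 1 held GAS and 0 held ISRE. The windows of Ubd, Tap1, Psmb9, H2-Eb1 and Ceacam10 held neither set of letters.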

How the data were processed

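Colon and ileum RNA, extracted with the miRNeasy mini kit and biotin-labelled, was hybridised to Affymetrix arrays of a single colour, per the labels' protocols. The log2 expression values deposited by the authors come from RMA and Expression Console (Affymetrix, 1.4.1.46), per the submitters' processing notes, and the role of each is not given. RMA summarises probes on the log2 scale after normalizing arrays to each other. No detection calls were used, so no level is called absent, and the number of arrays limits the precision. A model of 4 group means was fitted to all 13 arrays (lmFit and eBayes, limma 3.58.1 in R 4.3.3). The colon arrays enter the ileum contrast through the shared spread. Benjamini-Hochberg adjustment ran over 19572 probe sets with a threshold of 0.05, and where a gene had several, the probe set with the highest mean stood for it in the lists. Symbols came from the platform annotation, and 19572 of 19572 matched a RefSeq table by Entrez identifier. Since no label says that arrays are separate mice, p-values cover only the spread between samples, which may be technical, and no cage, batch or date is given.

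The members and the 51 gene lists were chosen with earlier results of these data known, and lists are described by counts and medians with no test. The genes named are the 20 largest falls and rises past the threshold without overlap (predicted genes counted only), called members of each list with the 3 next by p, genes called in the ileum arrays alone, the 10 largest rises and falls past the threshold without array 11 and not with it, the 10 highest and 10 lowest on array 11, and 9 genes chosen for their role. The other called genes were added to account for all. The alternatives were the ileum arrays alone, array weights, removal of the dimmest probe sets (1 in 3), a second quantile normalization, median centring, a trended robust prior, the title number as a block, and leaving out each ileum array. Tested on simulated data (19572 genes, 200 of them changed), the fit recovered 67.2%, 97% and 100% of changes of 1, 2 and 3 on the log2 scale, with 5.88% false calls. The simulated noise was independent, with 1 spread per gene on all arrays. An array that stands apart, like array 11, was not simulated, so these rates check the code and need not hold for the data.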

Additional observations from a re-analysis of the deposited data

Results flagged for a closer look

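For 31 genes called in the ileum the change there differed from the change in colon by the limma contrast of the 2 changes, at an adjusted p under 0.05. That contrast contains the ileum difference by which these genes were called, so an overlap of the 2 sets is built in. Given as ileum change minus colon change on the log2 scale, the genes of the interferon response were U90926 (-4.59), Ubd (-4.11), Igtp (-3.55), Ifit1bl1 (-2.89), Gm12250 (-2.85), Zbp1 (-2.36) and Batf2 (-1.80). Epithelial and oxidant genes were Ceacam10 (-4.19), Fgf15 (-4.17), Nos2 (-3.67), Barx2 (-2.74), Nox1 (-2.69), Gsdmc (-1.65) and Gsdmc3 (-1.64). Antigen presentation genes were H2-Eb1 (-2.82) and Tap1 (-2.26). Lymphocyte genes were Gzmb (-3.91), Cd7 (-2.96), Nkg7 (-1.96), Cd244a (-1.92), Itgae (-1.76) and Cd96 (-1.38). The others were Exoc3l4 (-2.35), Gml (-2.28), Xdh (-1.96), Zc3h12a (-1.87), Ly75 (-1.77), Mbl2 (-1.43), Apol7e (-1.36) and Nudt5 (-1.08). In 1 gene the difference was positive, Pnliprp2 (2.74).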

How the results depend on the processing

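The fit of all 13 arrays called 105 probe sets, 95 lower and 10 higher. The 6 ileum arrays alone gave 20 (18 lower, 2 higher), and without array 11, an alternative chosen after seeing the data, 182 (125 lower, 57 higher). Array weights gave 1012 (534 lower, 478 higher) with weights of 0.302, 3.792 and 0.644 for vancomycin ileum arrays 11, 13 and 14. Leaving out 1 ileum array gave 40 to 172 calls, 40 to 130 lower and 0 to 42 higher. The count was 40 without no-antibiotic array 3, 56 without array 1, 56 without vancomycin array 13 and 172 without array 11. Centring on the median, a second quantile normalization, the trended robust prior and removal of the dimmest probe sets gave 74 to 106. Within the ileum the groups share no title number. Colon and ileum do, and the title number as a replicate block gave 104 calls (95 lower, 9 higher). Arrays of 1 number correlated in their deviations by -0.016 to 0.236, and the main fit did not treat them as pairs. The pancreatic amylases were nevertheless high on numbers 1 and 11 in both tissues. The labels do not say whether colon and ileum arrays of 1 number come from 1 mouse, and this was not tested. For the difference between tissues the count was 37, or 191 with array weights, 43 with the block and 12 to 84 with 1 ileum array left out. No named gene changed direction past the threshold in these alternatives. The limits are 3 arrays per group, 1 of which stood apart, with no record of separate mice.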
